A study of Mus musculus with 9 samples.

Results

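The genes described here build the red blood cell: its membrane (Slc4a1, Sptb, Epb42), its heme (Alas2), its iron supply (Tfrc), its globin chaperone (Ahsp) and the transcription factors of its lineage (Klf1, Gata1). They were chosen by symbol, 8 in all, and 7 of them had a row among the 56748 genes of the count table. Ahsp was not analysed here. Of the 7, 5 passed the filter on low counts and were tested among 17171 genes, while Klf1 and Gata1 stayed below it and are given as counts. RNA-seq counts were available for the whole brain of mouse embryos on day 14 of gestation, as 9 libraries, 3 per group. One group had been exposed to valproic acid, an anticonvulsant that inhibits histone deacetylases. Another had been exposed to poly(I:C), a double-stranded RNA analogue used as a stand-in for a virus. The control group had received saline. The sources used here do not give strain, dose, day of exposure, dam, litter or sex, and the spread behind each p-value is that of these samples alone, which may be technical.

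Red cells of the embryo come in waves. Large primitive cells from the yolk sac carry embryonic globins, and smaller definitive cells from the fetal liver carry mostly adult globins. Both keep RNA while they mature, so blood held in the vessels of a dissected brain adds red cell transcripts to brain RNA. In such tissue, fewer cells of a type and less RNA per cell cannot be told apart.

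The libraries held 15399974 to 19883131 counts, and the biological coefficient of variation was 7.44%. Libraries of a group differed by more than sampling noise (chi-square 3.73 to 6.01 per degree of freedom), so none was a copy. Defining red cell markers were present: all 12 listed (the globins, Rhag, Hemgn and Trim10 among them) had counts in each group. They summed to 2216 to 2573 CPM (counts scaled to library size) in the valproic acid libraries, 1362 to 1988 CPM in the poly(I:C) libraries and 1765 to 2061 CPM in the control libraries. The neural markers that define brain, 10 genes such as Sox2 and Tubb3, summed to 6305 to 6671, 6593 to 6779 and 6527 to 6650 CPM in the same groups. The X-inactivation transcript Xist, a mark of female tissue, reached 979 to 1054 CPM in 4 libraries (each valproic acid one, and replicate 3 of poly(I:C)) and 0.236 CPM at most in the other 5. Y-linked genes summed to 196 to 201 CPM in replicates 1 and 2 of poly(I:C) and control and to 0 in the other 5 libraries, so that control replicate 3 held neither. Poly(I:C) replicate 3 also had the least adult globin RNA (Hbb-bs, Hbb-bt, Hba-a1 and Hba-a2 together), at 1291 CPM, against 1666 to 2349 CPM in the other 8 libraries.

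Per length of transcript, the 7 genes covered a wide range. Over the control libraries Alas2 averaged 10.7 ± 0.921 CPM per kilobase of exon and Tfrc 10.5 ± 1.23, and these 2 levels did not differ beyond their spread. Sptb followed at 2.38 ± 0.0346 and Slc4a1 at 1.35 ± 0.133 CPM per kilobase, apart from each other and from their neighbours. Epb42 (0.139 ± 0.0509), Klf1 (0.121 ± 0.0868) and Gata1 (0.0591 ± 0.0315 CPM per kilobase) closed the order with spreads that overlapped (mean ± SD, n = 3 libraries; exon lengths from GENCODE release M21). In the valproic acid libraries Slc4a1, at 3.79 ± 0.166 CPM per kilobase, stood above Sptb at 2.23 ± 0.0198. In the poly(I:C) libraries the order of Sptb (2.13 ± 0.255) and Slc4a1 (1.34 ± 0.390) was that of the controls.

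**Figure D1:**
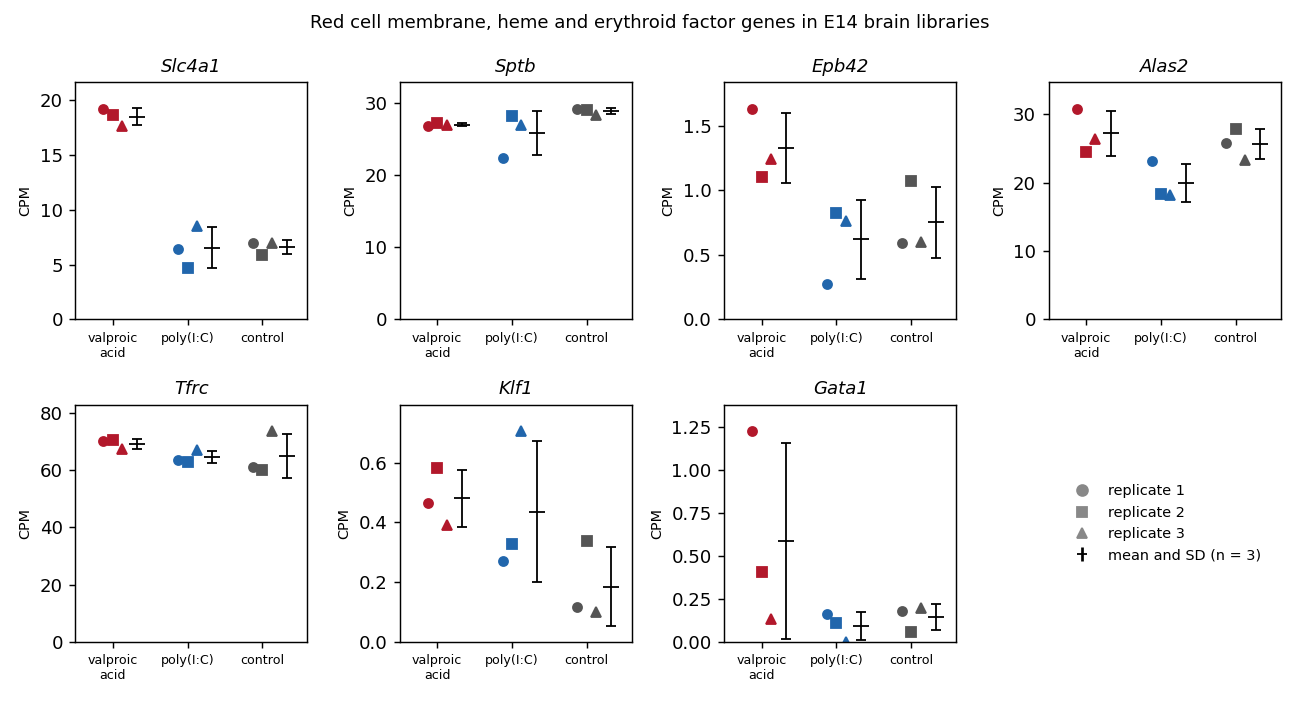
CPM of the 7 genes with a row in the table, by group on the x axis. Symbols mark single libraries, and the bar gives the mean and SD of 3 libraries. The valproic acid libraries of Slc4a1 sit between 17.6 and 19.2 CPM, above all others, and the poly(I:C) libraries of Alas2 are the 3 lowest of that gene.

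The membrane genes were compared first. Slc4a1 encodes band 3, the anion exchanger that is the main integral protein of the red cell membrane and ties it to the spectrin skeleton. Its level was 19.2, 18.7 and 17.6 CPM in the valproic acid libraries, 6.45, 4.72 and 8.53 CPM in the poly(I:C) libraries and 6.96, 5.86 and 7.01 CPM in the controls. All valproic acid libraries were above every other library, and the poly(I:C) and control ranges overlapped. Slc4a1 rose 2.80-fold under valproic acid against control (log2 fold change 1.49, SE 0.159; edgeR adjusted p = 1.9e-04). It rose 2.83-fold against poly(I:C) (log2 fold change 1.50, SE 0.160; edgeR adjusted p = 2.2e-04). For poly(I:C) against control the log2 fold change was -0.02, with a 95% interval of -0.38 to 0.35 (edgeR adjusted p = 0.99). Each of the 12 fits that left out a library of the 2 comparisons with valproic acid kept the call, with log2 fold changes of 1.31 to 1.73.

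The sex-linked transcripts move with this result. Xist was present in each valproic acid library and absent from the controls, at no more than 0.236 CPM, so sex and exposure cannot be told apart in that comparison. With Y-linked expression as a covariate the log2 fold change of Slc4a1 against control was 1.25 (edgeR adjusted p = 0.0039). With Xist as a covariate it was 0.87 and the call was lost (edgeR adjusted p = 0.28). Within groups, Xist differed between libraries almost only through poly(I:C) replicate 3. Every fit with this covariate therefore leans on that library. Against poly(I:C), where replicate 3 also held Xist, the call was kept with either covariate (edgeR adjusted p = 0.0044 and 0.030).

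Epb42 encodes protein 4.2, which binds band 3 on the inner face of the membrane. It was scarce, with 28, 19 and 19 counts in the valproic acid libraries, 5, 15 and 13 in the poly(I:C) libraries and 10, 19 and 12 in the controls. In CPM the valproic acid libraries (1.11 to 1.63) lay above the poly(I:C) libraries (0.271 to 0.823) and the controls (0.590 to 1.07). The test did not call it: the log2 fold change was 0.82 against control (SE 0.398; 95% interval -0.03 to 1.67; edgeR adjusted p = 0.25) and 1.10 against poly(I:C) (SE 0.411; interval 0.22 to 1.98; edgeR adjusted p = 0.185). At these counts a change of that size was not resolved.

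Sptb encodes beta spectrin of the red cell skeleton, which neurons and muscle make as well. Its level was 26.8, 27.3 and 27.0 CPM under valproic acid, 22.4, 28.2 and 27.0 CPM under poly(I:C) and 29.2, 29.0 and 28.4 CPM in the controls. Both exposed groups lay below the controls in all libraries, by small amounts. The log2 fold change was -0.10 for valproic acid (SE 0.0814; 95% interval -0.27 to 0.08; edgeR adjusted p = 0.54) and -0.16 for poly(I:C) (SE 0.0812; interval -0.33 to 0.01; edgeR adjusted p = 0.465), neither of them called. A change of the size seen for Slc4a1 lies outside these intervals.

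Alas2, on the X chromosome, encodes the erythroid form of 5-aminolevulinate synthase, which catalyses the first and rate-limiting step of heme synthesis in red cell precursors. It stood at 30.8, 24.4 and 26.3 CPM in the valproic acid libraries, 23.1, 18.4 and 18.2 CPM in the poly(I:C) libraries and 25.8, 27.8 and 23.4 CPM in the controls. The poly(I:C) libraries were the 3 lowest, and those of valproic acid and control overlapped. Against poly(I:C), Alas2 rose 1.37-fold under valproic acid (log2 fold change 0.45, SE 0.110; edgeR adjusted p = 0.044). That call was lost without poly(I:C) replicate 2 (edgeR adjusted p = 0.19), poly(I:C) replicate 3 (0.15), valproic acid replicate 1 (0.14) or replicate 3 of that group (0.078). It was also lost in a fit of only the 6 libraries compared (0.058), with Y-linked expression (0.052) and with Xist as a covariate (0.22). For poly(I:C) against control the log2 fold change was -0.37 (SE 0.110; 95% interval -0.60 to -0.13), with an unadjusted p of 0.0047 and an edgeR adjusted p of 0.19, so it was not called. With no filter on low counts it was (edgeR adjusted p = 0.0057), in a fit that called more genes in each comparison. For valproic acid against control it was 0.08 (SE 0.108; interval -0.15 to 0.31; edgeR adjusted p = 0.70). Adult globin RNA moves with the low poly(I:C) levels of Alas2: it was 1881, 1666 and 1291 CPM in these libraries and 1697 to 1997 CPM in the controls. Its part in the result was not tested.

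Tfrc encodes the transferrin receptor, the entry of iron into red cell precursors, and is also carried by dividing cells and brain endothelium. Its level was 70.0, 70.4 and 67.2 CPM under valproic acid, 63.6, 62.9 and 67.0 CPM under poly(I:C) and 61.1, 59.8 and 73.6 CPM in the controls. Control replicate 3 was the highest of all 9 libraries, and the control range covered both exposed groups. No comparison called it. The log2 fold change was 0.09 for valproic acid (95% interval -0.05 to 0.24; edgeR adjusted p = 0.47) and -0.01 for poly(I:C) (-0.16 to 0.14; edgeR adjusted p = 0.97), both against control. In the 6 fits without a library the log2 fold change for valproic acid against control ran from 0.038, without control replicate 2, to 0.20, without control replicate 3 (edgeR adjusted p = 0.82 and 0.070), and none called it.

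**Figure D2:**
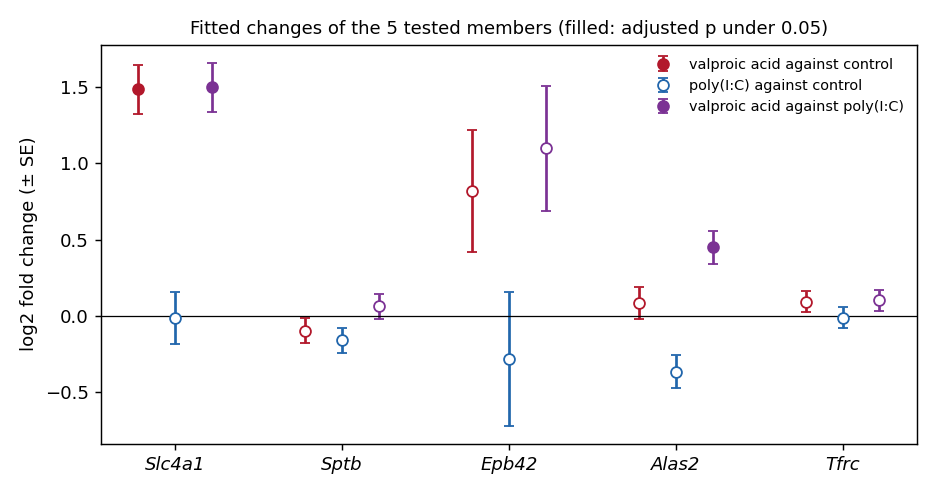
Log2 fold changes of the 5 tested genes (y axis) with standard errors, in the 3 comparisons. Filled points have an edgeR adjusted p under 0.05. Slc4a1 stands near 1.5 in both comparisons with valproic acid and near 0 for poly(I:C) against control, and Alas2 is filled only for valproic acid against poly(I:C).

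Klf1 and Gata1 encode the zinc finger factors that switch on globin, heme and membrane genes in red cell precursors. Gata1, also on the X chromosome, acts in megakaryocytes and mast cells as well. Klf1 had 8, 10 and 6 counts in the valproic acid libraries, 5, 6 and 12 in the poly(I:C) libraries and 2, 6 and 2 in the controls. In CPM all valproic acid libraries (0.392 to 0.582) lay above the controls (0.0994 to 0.338), and poly(I:C) replicate 3 was the highest of the 9 at 0.706. Gata1 had 21, 7 and 2 counts under valproic acid, 3, 2 and 0 under poly(I:C) and 3, 1 and 4 in the controls. Of the 30 valproic acid counts, 21 came from replicate 1, and the valproic acid and control ranges overlapped. The 0 of poly(I:C) replicate 3 allows up to 0.176 CPM, the worth of 3 counts, and such limits cover counting error only. A fit with no filter on low counts took in 32102 genes and called more genes than the main fit in each comparison. In it, Gata1 was called for valproic acid against poly(I:C) (log2 fold change 2.59, SE 0.818; edgeR adjusted p = 0.047) and not against control (1.98, SE 0.761; edgeR adjusted p = 0.12). Klf1 was not called in that fit (log2 fold change 1.36, SE 0.693, against control; edgeR adjusted p = 0.36). Other lineages use Gata1 as well. Of the 8 mast cell markers, 3 (Mcpt4, Tpsab1 and Fcer1a) were at 0 in all 9 libraries. Cpa3, Cma1, Tpsb2 and Ms4a2 had no more than 5 counts in any group. Hdc was the highest, at means of 1.43, 1.01 and 1.01 CPM under valproic acid, poly(I:C) and control. All 9 megakaryocyte and platelet genes had counts in each group. The 8 mast cell genes summed to 0.849 to 2.22 CPM under valproic acid, 0.975 to 1.41 under poly(I:C) and 0.732 to 1.77 CPM in the controls. The 9 megakaryocyte and platelet genes summed to 11.5 to 12.4, 8.56 to 10.1 and 9.97 to 10.9 CPM, so the valproic acid range lay above the other 2. Of these 9 genes 3 were tested, and none was called in any comparison. The part of these cells in the Gata1 counts was not tested.

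In counts, 1 of the 5 tested genes (Slc4a1) was called for valproic acid against control, where 6.35% of all tested genes were called. None was called for poly(I:C) against control by edgeR, where 0.536% of all genes were (1 of 5, Alas2, at an unadjusted p under 0.05, where 2065 of the 17171 genes were; 0 of 5 by DESeq2). For valproic acid against poly(I:C), 2 of 5 (Slc4a1 and Alas2) were called, beside 2.59% of all genes. The 3 comparisons share libraries, so their values are given side by side and not as repeats. The median log2 fold change of the 5 was 0.09, -0.16 and 0.45 in these comparisons, beside medians of -0.0033, -0.0030 and -2.3e-05 over all tested genes. Valproic acid and control libraries did not overlap for Slc4a1 and Epb42 upward (12.6% of all tested genes) and for Sptb downward (13.0%). Poly(I:C) libraries lay below all controls for Sptb and Alas2 (8.83% of all tested genes). Valproic acid libraries lay above all poly(I:C) libraries for 4 of the 5, Sptb being the exception (10.5%).

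The counts were also set against the RNA of globin genes in each library, first that of the 4 adult globins. Reads of Hba-a1 and Hba-a2, and of Hbb-bs and Hbb-bt, may be shared between these near-identical copies, so their sum was used. Slc4a1 gave 8.19, 8.42 and 8.43 counts per 1000 adult globin counts under valproic acid, 3.43, 2.83 and 6.61 under poly(I:C) and 3.63, 2.93 and 4.13 in the controls. On this scale the valproic acid libraries stood above all others, with poly(I:C) replicate 3 next. Against the embryonic globins Hbb-y, Hba-x and Hbb-bh1, a scale chosen after the data were seen, this was not so. Slc4a1 then gave 91.0, 105 and 154 counts per 1000 embryonic globin counts under valproic acid, 62.6, 71.8 and 129 under poly(I:C) and 83.2, 101 and 110 in the controls. The 3 ranges overlapped, and the ratio of the valproic acid mean to the control mean was 1.19, against 2.34 on the adult globin scale. Alas2 gave 13.1, 11.0 and 12.6 counts per 1000 under valproic acid, 12.3, 11.0 and 14.1 under poly(I:C) and 13.5, 13.9 and 13.8 in the controls. Per adult globin count the poly(I:C) range of Alas2 took in that of the controls, and the valproic acid libraries were below the controls. Per 1000 embryonic globin counts Alas2 gave 137 to 230 under valproic acid and 224 to 280 under poly(I:C), both below the controls at 309 to 478. Against the adult globins Epb42 gave 0.498 to 0.695 under valproic acid, 0.144 to 0.592 under poly(I:C) and 0.307 to 0.536 in the controls, with all ranges overlapping. Sptb gave 11.4 to 12.9 counts per 1000 under valproic acid, below the control range of 14.5 to 16.8 and within the poly(I:C) range of 11.9 to 20.9 but for its low end. Tfrc gave 29.8 to 32.1, 33.8 to 51.9 and 30.0 to 43.4 counts per 1000 in the same groups.

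**Figure D3:**
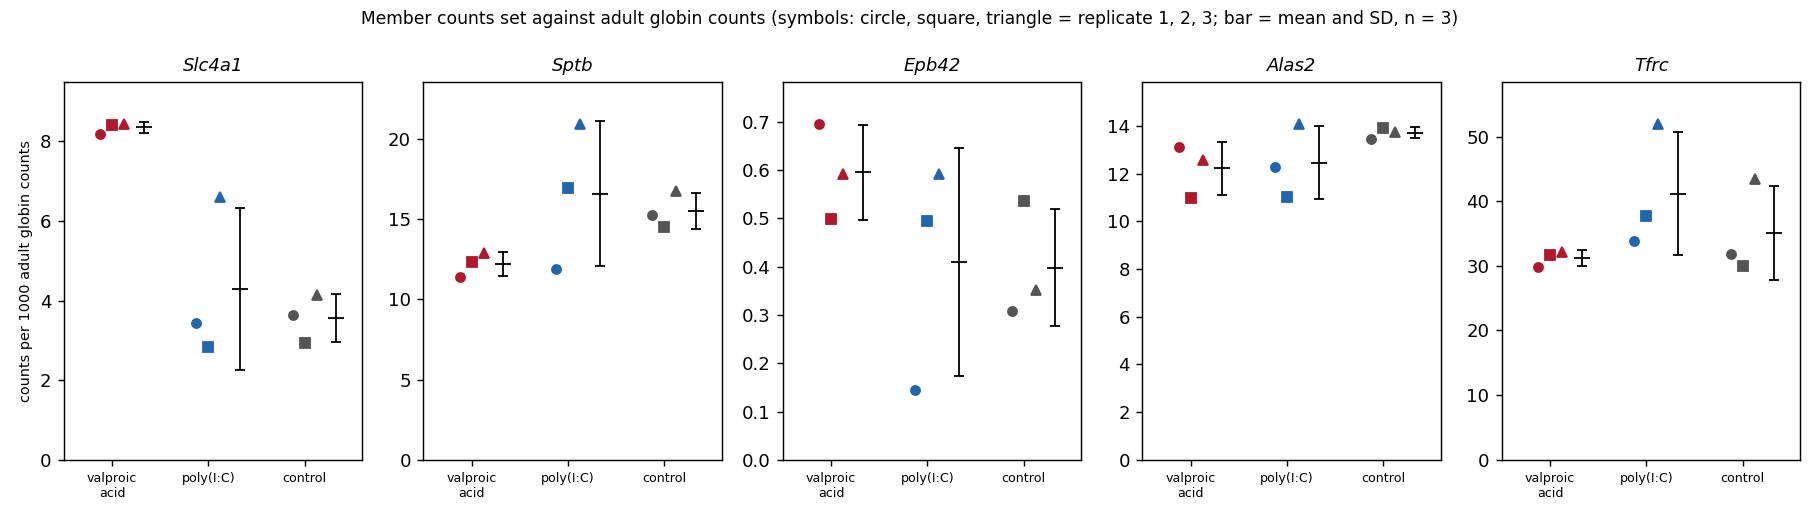
Counts of the 5 tested genes per 1000 counts of the adult globins Hbb-bs, Hbb-bt, Hba-a1 and Hba-a2 (y axis) by group, one symbol per library, with mean and SD of 3 libraries. Slc4a1 lies at 8.19 to 8.43 in the valproic acid libraries and at no more than 6.61 elsewhere, and Alas2 between 11.0 and 14.1 in all 9 libraries.

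The list of red cell membrane and skeleton genes held 18 genes, 15 of them tested. Of these, with Slc4a1, Sptb and Epb42 included, 3 were called higher and 1 lower under valproic acid against control. The low genes Kel and Tspo2 passed the filter on low counts (0.569 CPM in at least 3 libraries) through the 3 valproic acid libraries, with 1 poly(I:C) and 0 control libraries over it. They were tested because the valproic acid libraries were high, so their folds describe these libraries and the count supports nothing. Kel, the Kell blood group protease, was at 2.22, 1.57 and 1.83 CPM under valproic acid and 0.177, 0.451 and 0.547 CPM in the controls (4.63-fold, edgeR adjusted p = 0.020). Tspo2, an erythroid translocator protein, was at 0.758, 0.873 and 0.849 CPM under valproic acid and 0.118, 0.282 and 0.0994 CPM in the controls (4.86-fold, edgeR adjusted p = 0.042). Dmtn, the actin-bundling protein dematin, which neurons also make, fell by 0.26 on the log2 scale (47.4, 43.0 and 44.5 CPM under valproic acid, 56.4, 57.4 and 48.0 CPM in the controls; edgeR adjusted p = 0.041). Of these calls, that of Tspo2 was lost in each of the 6 fits that left out a library. The call of Kel was lost when the first or second control (edgeR adjusted p = 0.084 and 0.056) or the first valproic acid library (0.060) was left out. That of Dmtn was lost without the first or second control (each 0.14), or valproic acid replicate 2 (0.12) or 3 (0.099). With Xist as a covariate the log2 fold changes of Kel and Tspo2 were 0.20 and 0.22 (edgeR adjusted p = 0.97 for each), and with Y-linked expression 1.40 and 1.73 (0.17 and 0.26). The Xist values lean on poly(I:C) replicate 3, the highest library of its group for both genes. For poly(I:C) against control edgeR and DESeq2 called 0 of the 15. At an unadjusted p under 0.05 there were 0, beside 2065 of all 17171 tested genes.

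Embryonic and adult globins were compared next. The embryonic globins Hbb-y (2.47-fold), Hba-x (2.30-fold) and Hbb-bh1 (4.95-fold) rose under valproic acid against control (edgeR adjusted p = 0.0031, 0.0021 and 0.0048), calls that all 6 fits without a library kept. Hbb-bh1 was scarce, with 115 counts over the valproic acid libraries, 33 over the poly(I:C) libraries and 25 over the controls. Only 1 control library was over the filter on low counts for it. DESeq2 called Hbb-y and Hba-x in this comparison and not Hbb-bh1. The 3 edgeR calls were kept with Y-linked expression as a covariate (edgeR adjusted p = 0.016, 0.0031 and 0.030) and lost with Xist, at log2 fold changes of 1.63, 1.63 and 1.98 (0.22, 0.14 and 0.47). These estimates with Xist were above those of the main fit for Hbb-y and Hba-x and below for Hbb-bh1. As for Slc4a1, the Xist values lean on poly(I:C) replicate 3, and sex and exposure cannot be told apart in this comparison. Among adult globins, whose single copies are uncertain, Hba-a1 was at 1521, 1486 and 1380 CPM under valproic acid and 1197, 1223 and 1028 CPM in the controls (1.27-fold, edgeR adjusted p = 0.052; 0.59 on the log2 scale with Y-linked expression and 0.82 with Xist as a covariate, both called), and Hbb-bs at 642, 588 and 574 against 563, 584 and 517 CPM (1.08-fold, edgeR adjusted p = 0.52). The log2 fold changes of Hba-a2 and Hbb-bt were 0.40 and -0.12 (edgeR adjusted p = 0.72 and 0.50). In all, 3 of 7 tested globins rose against control, and 5 of 7 rose against poly(I:C), Hba-a1 and Hbb-bs among them (1.40-fold and 1.37-fold; edgeR adjusted p = 0.022 and 0.025). The last 2 calls were lost without poly(I:C) replicate 2 (edgeR adjusted p = 0.074 and 0.090) or valproic acid replicate 1. Of the embryonic globins, Hba-x kept its call against poly(I:C) in all 6 fits without a library. Hbb-y lost its call there without poly(I:C) replicate 2 (edgeR adjusted p = 0.090) or 3 (0.063). Hbb-bh1 lost its own without poly(I:C) replicate 2 (edgeR adjusted p = 0.114) or 3 (0.058) or valproic acid replicate 1 (0.073).

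**Figure D4:**
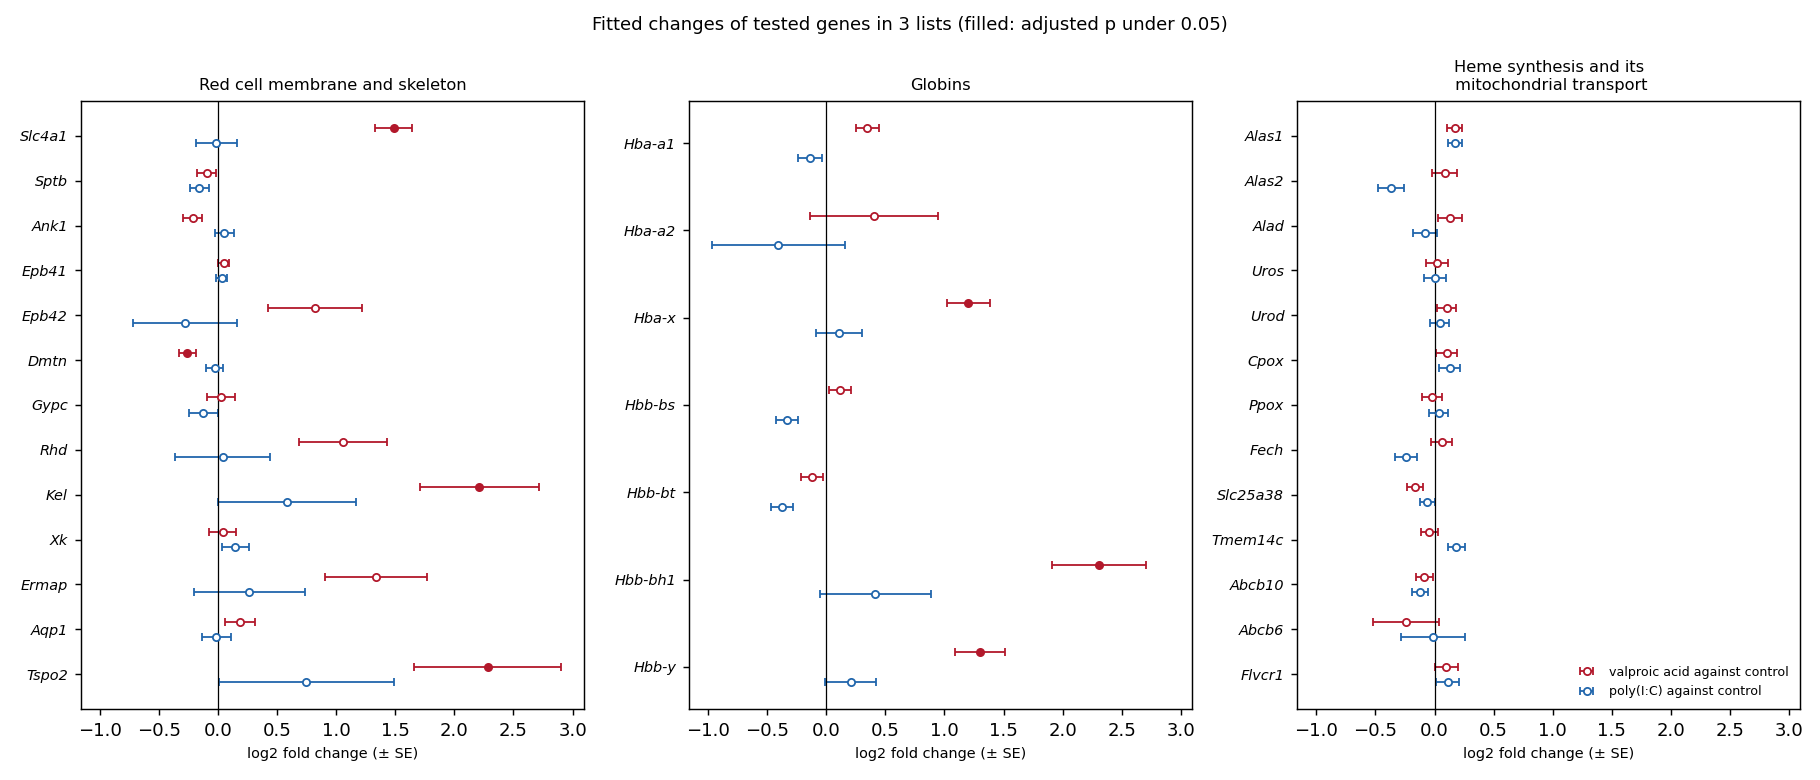
Log2 fold changes with standard errors (x axis) of tested genes of 3 lists, those reported here, for valproic acid against control (red) and poly(I:C) against control (blue). Filled points have an edgeR adjusted p under 0.05. In the membrane list filled points are Slc4a1, Kel, Tspo2 and Dmtn, in the globin list the 3 embryonic globins, and in the heme list there are none.

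The heme pathway came next. Of 14 tested genes of heme synthesis and its mitochondrial transport, edgeR called 0 for valproic acid against control, where the median log2 fold change was 0.07 and the range -0.24 to 0.17. At an unadjusted p under 0.05 there were 3, beside 3803 of all 17171 tested genes, and DESeq2 called 0. For poly(I:C) against control edgeR and DESeq2 called 0 (median 0.02). There 4 had an unadjusted p under 0.05, beside 2065 of all 17171 tested genes. For valproic acid against poly(I:C) edgeR called Alas2 alone (median 0.0068). Alas1, the form of the first enzyme that all cells use, was at 39.5, 39.1 and 41.2 CPM under valproic acid, 38.8, 43.7 and 37.6 under poly(I:C) and 34.9, 35.5 and 36.0 CPM in the controls. The exposed libraries of Alas1 all lay above the controls, and no comparison called it. Alad, the next enzyme of the pathway, was at 56.3, 42.6 and 52.8 CPM under valproic acid, 43.9, 43.4 and 43.6 under poly(I:C) and 40.9, 43.2 and 53.8 CPM in the controls, with overlapping ranges.

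Of 16 tested genes of iron uptake, storage and regulation, 2 rose under valproic acid against control and none fell. Hmox1, heme oxygenase 1, which breaks heme down, was at 15.9, 13.6 and 17.4 CPM under valproic acid and 9.20, 10.3 and 11.8 CPM in the controls (1.49-fold, edgeR adjusted p = 0.014; 0.0645 when the first control was left out and 0.052 without replicate 3 of valproic acid). Against poly(I:C) it rose 1.88-fold (edgeR adjusted p = 0.0018) and kept the call in all 6 fits without a library. Pcbp1, an RNA-binding protein that also carries iron to ferritin, rose 1.14-fold against control (edgeR adjusted p = 0.0073). Ftl1, the ferritin light chain, rose 1.14-fold against poly(I:C) (edgeR adjusted p = 0.048), a call kept in 1 of 6 fits without a library (highest edgeR adjusted p 0.21).

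Among 11 tested erythroid transcription factors and cofactors, Ldb1, a bridging cofactor of Gata1 complexes that many tissues use, rose under valproic acid against control (1.18-fold, edgeR adjusted p = 0.0055). None fell there, and the median log2 fold change was 0.15. In the other comparisons edgeR called 0 of the 11. At an unadjusted p under 0.05 there was 1 in each. Of all 17171 tested genes, 2065 were under it for poly(I:C) against control and 2860 between valproic acid and poly(I:C). DESeq2 called 1 of the 11 (Ldb1) for poly(I:C) against control and 0 between valproic acid and poly(I:C). Among 12 other tested erythroid genes, Hemgn, a nuclear protein of red cell precursors, was at 1.57, 1.57 and 0.980 CPM under valproic acid, 0.108, 0.219 and 0.941 CPM under poly(I:C) and 0.236, 0.169 and 0.149 CPM in the controls. It too passed the filter through the valproic acid libraries, with 0 control libraries over it. The fitted level under valproic acid was 7.32-fold that of the controls (edgeR adjusted p = 0.014, lost without control replicate 3 at 0.057), given as a description of these libraries. With Xist as a covariate its log2 fold change was 0.37 (edgeR adjusted p = 0.94), and with Y-linked expression 2.06 (0.14). The Xist value leans on poly(I:C) replicate 3, the highest library of its group for Hemgn. Cpeb4, a translation regulator that neurons also use, fell by 0.25 on the log2 scale against control (edgeR adjusted p = 0.0052). Tent5c, a poly(A) polymerase, rose 1.76-fold under valproic acid against poly(I:C) (edgeR adjusted p = 0.0062). Fam210b, a mitochondrial protein needed for heme synthesis in red cell precursors, rose 1.40-fold under poly(I:C) against control (edgeR adjusted p = 0.0058), where it was at 85.2, 89.7 and 94.0 CPM, against 73.3, 61.5 and 58.0 CPM in the controls. Under valproic acid against poly(I:C) it fell by 0.34 on the log2 scale (edgeR adjusted p = 0.025, lost in 4 of 6 fits without a library).

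Over the 6 lists together, without the 8 members, 11 of 70 tested genes were called for valproic acid against control (9 higher, 2 lower), 1 for poly(I:C) against control and 11 between valproic acid and poly(I:C) (10 higher, 1 lower). Of the 70, 4 (Kel, Tspo2, Hemgn and Nfe2) had no control library over the filter, and 3 of these are among the calls against control, so that count is no support. The counts are 15.7%, 1.43% and 15.7%, beside 6.35%, 0.536% and 2.59% of all tested genes. With Y-linked expression as a covariate the counts were 6, 2 and 5, and with Xist 1, 1 and 3. In both comparisons with valproic acid the calls over all tested genes fell steeply with these covariates too, as given in the closing section. The drop is thus not particular to these lists. Without poly(I:C) replicate 2 or valproic acid replicate 1 the last was 3 or 4.

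Poly(I:C) replicate 3 stood apart from its group for several low genes. It held 21 counts of Kel, against 7 and 4 in the other 2 poly(I:C) libraries, 16 of Hemgn against 2 and 4, 10 of Tspo2 against 4 and 1, and 12 of Klf1 against 5 and 6. Other members differed: Gata1 had 0 counts against 3 and 2, and Epb42 13 against 5 and 15. Tfrc was at its highest of the group in this library, at 67.0 CPM against 63.6 and 62.9, and Sptb was between the other 2. Alas2, at 18.2 CPM, was at its lowest of the group there. The Slc4a1 level of this library was the highest and its adult globin sum the lowest of that group. It was also the one poly(I:C) library with Xist. Without it, the log2 fold change of Slc4a1 for poly(I:C) against control was -0.24 (edgeR adjusted p = 0.66), and that for valproic acid over poly(I:C) was 1.73. Sex and this library cannot be told apart.

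Promoters show how the genes differ in the letters that the lineage factors are known to bind, so 4 are printed: 2 genes found in red cells (Alas2, Epb42), a lineage factor (Klf1) and the broadly used Sptb. Each is the 250 bases before the start site, read 5′ to 3′ on the gene's strand, from RefSeq on GRCm38.p6. That build is older than the GRCm39 of the counts, so the coordinates apply to the sequences only. Capitals mark AGATAA or TGATAA, letters bound by Gata factors, and CACCC, letters bound by Klf factors, on either strand. In these windows no match overlaps one of another kind.
Alas2, chrX:150547167-150547416, plus strand: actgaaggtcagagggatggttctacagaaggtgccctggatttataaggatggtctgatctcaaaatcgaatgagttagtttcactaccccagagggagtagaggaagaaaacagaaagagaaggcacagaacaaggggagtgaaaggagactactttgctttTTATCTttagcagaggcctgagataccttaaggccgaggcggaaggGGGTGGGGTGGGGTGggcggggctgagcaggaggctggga
Epb42, chr2:121036878-121037127, minus strand: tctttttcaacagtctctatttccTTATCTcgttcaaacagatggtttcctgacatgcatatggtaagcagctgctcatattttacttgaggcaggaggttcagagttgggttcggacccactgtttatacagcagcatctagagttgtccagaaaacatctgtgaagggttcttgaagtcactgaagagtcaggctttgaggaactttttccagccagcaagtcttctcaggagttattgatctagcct
Klf1, chr8:84901732-84901981, plus strand: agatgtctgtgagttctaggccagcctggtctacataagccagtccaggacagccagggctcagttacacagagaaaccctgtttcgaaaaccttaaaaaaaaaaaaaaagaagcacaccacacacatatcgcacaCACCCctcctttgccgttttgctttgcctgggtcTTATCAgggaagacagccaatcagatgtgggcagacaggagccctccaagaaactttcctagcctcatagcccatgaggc
Sptb, chr12:76710548-76710797, minus strand: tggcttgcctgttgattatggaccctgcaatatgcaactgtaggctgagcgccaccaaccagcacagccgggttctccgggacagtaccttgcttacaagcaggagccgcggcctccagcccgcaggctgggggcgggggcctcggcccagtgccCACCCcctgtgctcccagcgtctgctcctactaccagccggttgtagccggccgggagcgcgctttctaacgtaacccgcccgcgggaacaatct

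Alas2 held 1 Gata match, with its first base 86 bases before the start, and 3 adjoining CACCC matches from 40 bases before it. Klf1 held 1 of each kind, 80 and 114 bases before its start. Epb42 held a Gata match 226 bases before the start and no CACCC, and Sptb a CACCC 95 bases before it and no Gata match. Gata1 and Tfrc held CACCC only. Over all 32851 promoters of the table, 16.6% held a Gata match, 52.0% a CACCC and 7.11% both, so CACCC alone sets no gene apart. Promoters for 6 of the 8 genes were in the table, Slc4a1 and Ahsp being the others. Of those 6, the Gata match was present in 3. A match is a run of letters and not a bound site.

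The genes whose level followed most closely the mean of the tested members other than Tfrc, or Tfrc alone, were sought as a description. Over the 9 libraries, the mean centred log2 CPM of Slc4a1, Sptb, Epb42 and Alas2 had its highest Pearson correlations (0.943 to 0.956) with Parp9, Lgals1, Itga11, Arhgef7, Arrdc4, Fbn2, Bst2, E2f1, Rpl22 and Ifitm3. These 4 members share no single profile: their pairwise correlations ran from -0.083 (Slc4a1 with Sptb) to 0.64 (Slc4a1 with Epb42). Tfrc alone was followed most closely by Dhx40, Mib1, Gm24598, Riok1 and C130071C03Rik (0.926 to 0.939). Differences in group and sex between the libraries enter each value, and the leading genes of so many compared are high by selection.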

How the data were processed

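RNA-seq of whole brain was measured in 9 libraries. Per the labels' protocols, total RNA was depleted of ribosomal RNA, fragmented and made into libraries with a NEBNext Ultra kit. The authors deposited raw read counts per Ensembl gene, which were used as deposited. Per the submitters' processing notes the aligner was HISAT2 and the build GRCm39. The sources used here name no counter, strand setting or annotation release, so overlapping and antisense genes cannot be told apart. Totals were 15399974 to 19883131 counts per library, which limits genes under about 10 counts most.

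Symbols (52073 of 56748 genes), chromosomes and exon lengths came from GENCODE M21. The edgeR 4.0.16 function filterByExpr (minimum count 10, total 15) chose the genes, which were scaled by TMM factors and fitted over all 9 libraries with a mean per group. Groups were compared by the two-sided quasi-likelihood F-test, with Benjamini-Hochberg adjustment over 17171 genes and calls under 0.05. A standard error is the log2 fold change divided by the root of F, and 95% intervals use the t distribution. CPM values use TMM factors, and log2 CPM a prior count of 2. R was version 4.3.3.

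The members, the 6 pathway lists and 7 marker lists were chosen with earlier results of these data known. Up to 5 called genes per list and comparison were named, or up to 2 of the highest level where none was called; some genes of the lists are not reported here. Alternatives were DESeq2 1.42.0, its size factors, no filter, a replicate block, a fit of just the 6 libraries of a comparison, sex-linked covariates, each library left out in turn, and library sizes without globin, mitochondrial and rRNA genes. The method was tested on simulated data. A scaling to embryonic globins was a later addition, made with the values known.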

Additional observations from a re-analysis of the deposited data

How the results depend on the processing

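For valproic acid against control the count of genes called was 1090, and 1661 with no filter on low counts, 277 with Y-linked expression and 19 with Xist as a covariate. Leaving out a library gave 467 to 789: 467, 709 and 605 without control replicate 1, 2 and 3, and 701 lacking replicate 2 of valproic acid. The count of members, 1, was 0 with Xist as a covariate and 1 in every fit without a library. The pathway count of 11 was 19 with no filter, 6 with Y-linked expression, 1 with Xist and 8 to 10 without a library. For poly(I:C) against control 92 genes were called, and 464 with no filter, 170 by DESeq2, 43 with Xist and 38 to 63 without a library (38, 60 and 54 lacking replicate 1, 2 and 3 of the controls, 39 and 46 lacking replicate 1 and 3 of poly(I:C)). Members called were 1 with no filter and 0 in all fits without a library, and pathway genes 7 with no filter, 3 by DESeq2, 2 with the replicate block, 2 with Y-linked expression and 1 to 2 without a library. Between valproic acid and poly(I:C) 445 genes were called, and 1057 with no filter, 111 with Y-linked expression, 39 with Xist and 113 (poly(I:C) replicate 2) to 294 without a library, each library lowering it by over 1.5 times. Members called were 1 with Y-linked expression, with Xist and with only the 6 libraries compared, and 1 to 2 without a library. The pathway count of 11 was 19, 5 and 3 with no filter, Y-linked expression and Xist, and 3 to 10 without a library. The ratio of group means of Slc4a1 per globin count, valproic acid over control, was 2.34 for adult globins, 1.19 for embryonic globins and 2.26 for both together. The cause was not tested for any of these.

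Values near 0 changed sign without being called. With Y-linked expression as a covariate Tfrc was at -0.025 (log2) under valproic acid against control and -0.021 against poly(I:C), and with Xist Hba-a1 was at 0.0045 for poly(I:C) against control. Leaving out a library took Alas2 from -0.016 to 0.16 for valproic acid against control, and Sptb from -0.031 to 0.13 between valproic acid and poly(I:C). For poly(I:C) against control it took Slc4a1 from -0.24 to 0.18, Epb42 from -0.55 to 0.083, Tfrc from -0.065 to 0.093 and Hba-a1 from -0.26 to 0.0032. The replicate numbers do not pair the libraries: deviations of same-numbered libraries correlated at -0.04 to 0.13, with 1 of 9 pairs over 0.1, and 3 of 9 libraries correlated best with their own number. With the replicate block 912, 88 and 344 genes were called in the 3 comparisons, and the counts of members did not change. Under it Dmtn and Tspo2 lost their calls (edgeR adjusted p = 0.054 and 0.061), Hba-a1 gained one for valproic acid against control (0.0059) and Hbb-bs for poly(I:C) against control (0.040). DESeq2 gave no adjusted p for low genes such as Epb42, Kel, Tspo2 and Hemgn.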
